A study of Sus scrofa with 8 samples.

Results

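PLBD1, a phospholipase B-like enzyme, was followed together with lysosomal proteases of the cathepsin family (CTSB, CTSD, CTSH, CTSL and CTSS) and the lysosomal membrane glycoproteins LAMP1 and LAMP2 in pig liver. Every probe set of the Affymetrix porcine array whose annotation gives exactly 1 of these 8 symbols was taken, which found 15 of the 24123 probe sets on the array and 7 of the 8 genes. PLBD1 and LAMP2 have 4 probe sets each, CTSS has 3, and CTSB, CTSD, CTSH and LAMP1 have 1 each. No probe set carried the symbol CTSL. The samples were liver RNA of 4 Korean native pigs (KNP, an indigenous Korean breed, 7 months old) and 4 Yorkshire pigs (YS, a commercial breed, 6 months old), with 1 array per animal. Per the labels, the animals were housed alike, no treatment separates the breeds, and the tissue was the tip of the liver's largest lobe. The comparison asks which transcripts differ in level between the livers of the breeds, and breed and age cannot be told apart in it. Values are intensities on a linear scale, and differences are KNP minus YS in log2(intensity + 16) with the standard error (SE) of a limma fit over all probe sets tested.

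The lysosome is the acid compartment in which cells break down material taken up from outside and their own worn-out components. Cathepsins B, H, L and S are cysteine proteases and cathepsin D is an aspartic protease; all are made as inactive precursors and become active at low pH. PLBD1 removes fatty acids from phospholipids and is known from neutrophils and monocytes, while LAMP1 and LAMP2 are heavily glycosylated proteins that line the lysosomal membrane. In liver, both hepatocytes and the resident macrophages (Kupffer cells) are rich in lysosomes.

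PLBD1 was higher in the livers of KNP with 2 of its probe sets, while the breeds overlapped with the other two. PLBD1 was chosen by its limma call in this same comparison of KNP with YS, and the lysosomal genes were set beside it with earlier results known, so these values are a description, with no test, for all 7 genes. The brightest probe set, Ssc.7331.1.S1_at, read 1393, 2831, 2774 and 4059 in KNP replicates 1 to 4, and 650, 791, 733 and 1211 in YS replicates 1 to 4. All KNP animals lay above all YS animals, but the lowest KNP animal, replicate 1, and the highest YS animal, replicate 4, were close together. The mean was 2764 ± 1090 in KNP and 846 ± 250 in YS (SD, n = 4 per breed), a log2 difference of 1.63 (SE 0.30) or 3.10-fold.

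The probe set of PLBD1 named Ssc.24411.3.S1_a_at, whose suffix marks a design that takes in alternative transcripts of a gene, read 653, 1245, 1122 and 679 in KNP and 279, 229, 173 and 300 in YS. Here the breeds were farther apart, and the lowest KNP animal stood well above the highest YS animal. The means were 925 ± 303 and 245 ± 56.6 (SD, n = 4 per breed), a log2 difference of 1.82 (SE 0.25) or 3.53-fold. The order of the KNP animals was not shared by these probe sets. KNP replicate 4 lay 2.28 above the YS mean on the log2 scale with the brightest probe set and 1.44 above it with the other, whereas KNP replicate 2 lay 1.76 and 2.30 above it. Over the 8 arrays their log2 values had a Pearson r of 0.87, and their deviations from the breed means an r of 0.31 (n = 8 arrays, which share the breed difference).

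The remaining PLBD1 probe sets did not separate the breeds. Ssc.4335.1.A1_at, also a bright one, read 985, 1108, 1158 and 1017 in KNP and 1265, 915, 880 and 1103 in YS, so that the ranges overlapped throughout. Its difference was 0.047 (SE 0.16), with means of 1067 ± 80.2 and 1041 ± 179 (SD, n = 4 per breed). Ssc.24411.1.S1_at was dim, at 36.8 to 91.5 in KNP and 26.7 to 137 in YS, and was the only one of the 15 probe sets in the dimmest 40% of the array that was left out of the fit. What part of the PLBD1 transcript each probe set reads was not analysed here.

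**Figure D1:**
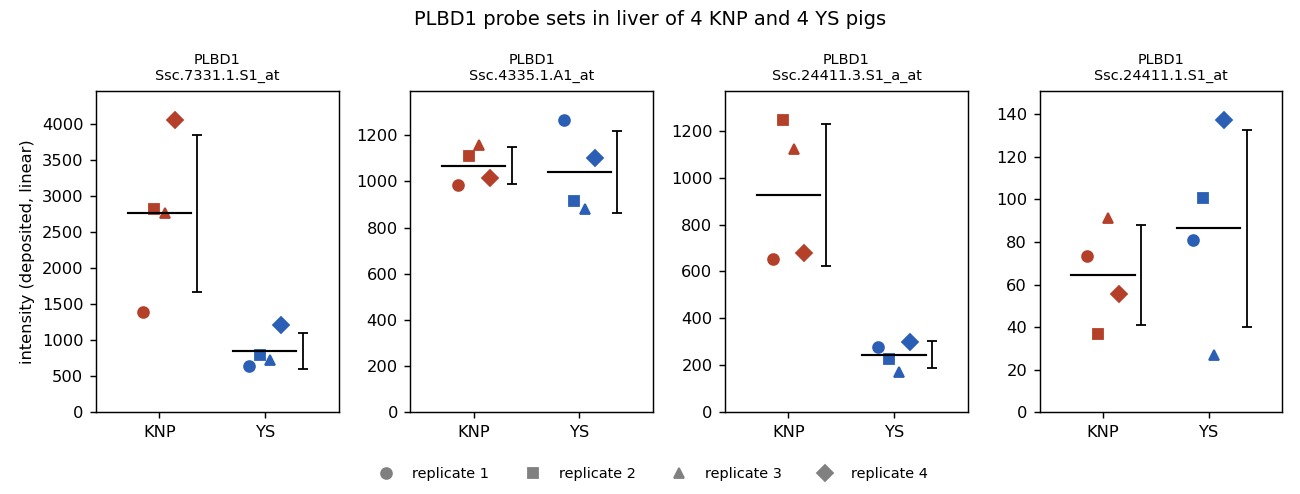
Intensity (linear, as deposited) of the 4 PLBD1 probe sets in each animal, with KNP in red, YS in blue, the shape giving the replicate number, a line at the mean and a bar for the SD over 4 animals. KNP animals lie above all YS animals with Ssc.7331.1.S1_at and Ssc.24411.3.S1_a_at, and the breeds overlap with the other two.

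The 6 probe sets of the 4 cathepsins on the array differed less between the breeds than the 2 PLBD1 probe sets that were called, and more than the PLBD1 probe set Ssc.4335.1.A1_at (0.047). All 6 of their probe sets, 3 of them of CTSS, had a higher mean in KNP, by 0.072 to 0.55 on the log2 scale, and none was called. Over all probe sets tested 48.9% had a higher mean in KNP. The 5 other cathepsins tested, given below, split into 2 higher and 3 lower. Of the 6 probe sets, only that of CTSD showed no overlap of the breeds. Over all probe sets tested, 9.68% showed none in either direction and 4.01% had all KNP above all YS animals. With so few probe sets nothing is read from the count. CTSD is the aspartic protease that starts the breakdown of many proteins in the lysosome. It read 2223, 2133, 2325 and 2498 in KNP and 1740, 1776, 1963 and 1830 in YS. This small gap went with a small spread between animals, with means of 2295 ± 156 and 1827 ± 97.9 (SD, n = 4 per breed) and a difference of 0.33 (SE 0.13), or 1.25-fold.

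CTSB, a cysteine protease that also trims peptides from their ends, was the brightest of the cathepsin probe sets and nearly level between the breeds. It read 24142, 21726, 27312 and 25624 in KNP and 24686, 27532, 21355 and 20711 in YS, a difference of 0.072 (SE 0.13). Both breeds covered the same range. The value depended on the scaling of the arrays: after quantile normalization, which gives all arrays 1 distribution, the difference was 0.45, and after cyclic loess normalization 0.38.

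CTSH, a cysteine protease that acts mainly as an aminopeptidase, read 3491, 3821, 1895 and 2536 in KNP and 2467, 2536, 2080 and 1860 in YS. KNP replicates 1 and 2 were the highest animals, and KNP replicate 3 lay near the lowest YS animal. The difference was 0.35 (SE 0.22), with means of 2936 ± 882 and 2236 ± 321 (SD, n = 4 per breed). Adjusted for the actin 3' to 5' ratio of each array, a measure of RNA length, it was −0.47 (SE 0.27). This ratio does not overlap between the breeds, so the adjusted value cannot separate breed from RNA length. The direction for CTSH is not fixed.

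CTSS is a cysteine protease that stays active at neutral pH and trims the invariant chain of MHC class II in antigen-presenting cells. By coefficient of variation it varied more among the YS than among the KNP animals with each probe set, most clearly with the brightest. Its brightest probe set, Ssc.17203.1.A1_at, read 10509, 10704, 10775 and 10410 in KNP, and 7990, 7138, 11516 and 11780 in YS. The KNP animals were almost equal (coefficient of variation 1.60%), while YS replicates 1 and 2 lay below and YS replicates 3 and 4 above all of them (24.8%). The difference between the breeds was 0.18 (SE 0.17). Ssc.17203.3.S1_at read 3031, 2156, 2719 and 1306 in KNP and 1145, 1015, 3637 and 3088 in YS, a difference of 0.20 (SE 0.42) that ran from −0.09 to 0.51 with 1 animal left out. Ssc.17203.2.S1_at read 658, 887, 953 and 733 in KNP and 440, 449, 634 and 674 in YS, a difference of 0.55 (SE 0.20). KNP animals also varied with both of these, at 32.9% against 60.2% in YS with Ssc.17203.3.S1_at and 16.8% against 22.2% with Ssc.17203.2.S1_at. All 3 probe sets put YS replicates 1 and 2 below YS replicates 3 and 4, and with the last one only KNP replicate 1 overlapped the YS range. The r between them over the 8 arrays was 0.86, 0.77 and 0.57, and 0.87, 0.80 and 0.70 for deviations from the breed means.

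Most of the tested macrophage markers were, like CTSS, lower in YS replicates 1 and 2 than in replicates 3 and 4. They were C1QC, C1QA, SPI1, CD163, VSIG4, AIF1, CD14, MRC1 and FCER1G. The exceptions among those tested were CD5L and TYROBP. This order was not particular to macrophage markers. Among others, the endothelial marker CDH5, the stellate cell marker PDGFRB, the T cell marker CD3E and the lysosomal gene GM2A also had it. The endothelial marker PECAM1 and the fibroblast marker DCN did not. How many of all probe sets have this order was not counted. The summed intensity of 12 macrophage markers was 22751, 21976, 31452 and 30751 in YS replicates 1 to 4, and 30526, 29893, 35903 and 29537 in KNP. C1QC, a chain of complement C1q that macrophages make, read 3110, 3084, 7451 and 6571 in YS, and CD163, the haptoglobin-haemoglobin scavenger receptor of Kupffer cells, 1286, 1380, 2919 and 2892. CD5L, a secreted protein of macrophages and the brightest of the 12, read 10369, 9121, 7462 and 9158 in YS, and TYROBP, a signalling adaptor of myeloid cells, 284, 392, 408 and 256, so neither followed that order. The 4 genes whose values are printed here were picked after their values were seen. In KNP, C1QC read 7011, 8266, 8167 and 5701 and CD163 read 2517, 1995, 5603 and 2544. The part of macrophage content in the CTSS values was not tested. In pieces of whole tissue, fewer cells of a type and less RNA per cell cannot be told apart.

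LAMP1 and LAMP2 showed no gap between the breeds with any of their 5 probe sets, of which 2 had a higher and 3 a lower mean in KNP. Such a gap, in either direction, was seen in only 9.68% of all probe sets tested. LAMP1, the most abundant glycoprotein of the lysosomal membrane in many cells, read 8728, 7872, 7974 and 9691 in KNP and 9538, 9801, 10147 and 11060 in YS. Only KNP replicate 4 reached into the YS range, and the difference was −0.25 (SE 0.12), which shrank to −0.15 after quantile and −0.06 after cyclic loess normalization.

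LAMP2, whose splice form LAMP2A is the receptor of chaperone-mediated autophagy, gave differences of −0.07 (SE 0.20), −0.14 (SE 0.14), 0.0075 (SE 0.19) and 0.33 (SE 0.19) with its 4 probe sets, from the brightest to the dimmest. The brightest, Ssc.1955.1.A1_at, read 6182, 4886, 4904 and 4872 in KNP and 7949, 5686, 4418 and 4370 in YS. Replicate 1 was the highest animal in each breed, and YS replicates 1 and 2, the lowest in CTSS, were here the highest of YS. Ssc.1955.2.S1_at also had its highest value in YS replicate 1, at 773 against 460 to 627 in the other 7 animals, whereas Ssc.8098.1.A1_at, at 2883 to 3951 in KNP and 3390 to 4182 in YS, and Ssc.4254.1.S1_at, at 440 to 606 and 305 to 488, did not. The r between LAMP2 probe sets over the 8 arrays ran from −0.09 to 0.59.

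**Figure D2:**
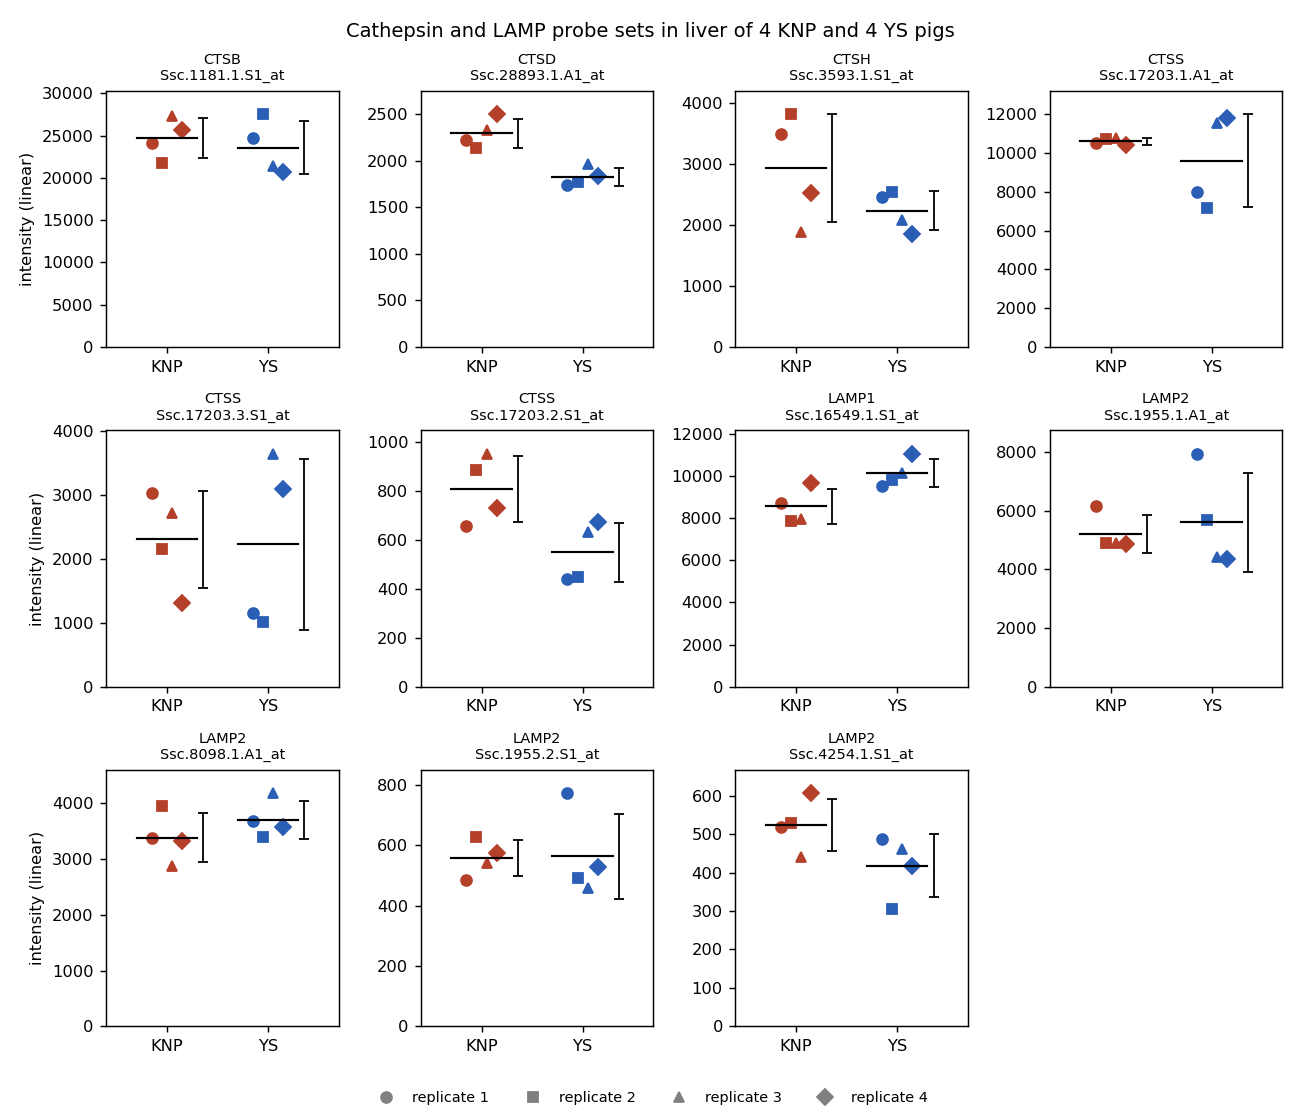
Intensity (linear, as deposited) of the 11 cathepsin and LAMP probe sets in each animal, drawn as for PLBD1. Only CTSD separates the breeds, and the CTSS panels show YS replicates 1 and 2 below YS replicates 3 and 4.

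Set against the cathepsins, PLBD1 stood 1.38 higher in its breed difference on the log2 scale (1.63 with its brightest probe set, against a median of 0.25 and a range of 0.072 to 0.35 over the brightest probe sets of CTSB, CTSD, CTSH and CTSS). This gap was 1.29 after quantile normalization and ran from 1.18 to 1.71 with 1 animal left out. It fell to 0.85 with the mean of all tested probe sets of each gene, which takes in the PLBD1 probe set that did not differ. Brightness was taken as the mean over all 8 arrays, so the high KNP values helped to choose this PLBD1 probe set. In YS alone Ssc.4335.1.A1_at was brighter, with a mean of 1041 against 846, and its difference was 0.047. The gap is a description, since PLBD1 was chosen for its difference and its probe set partly by its KNP values.

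Of the 14 probe sets in the fit, 2 were called higher in KNP (those of PLBD1 with a log2 difference of 1.63 and 1.82), 0 lower, and 12 were not called. Over all 14399 probe sets tested, limma called 1.03% (0.424% higher and 0.611% lower in KNP, at an adjusted p under 0.05). All KNP animals lay above all YS animals in 3 of the 14, against 4.01% of all probe sets tested, or 9.68% without overlap in either direction. Nothing is read from these shares, because the same comparison led to the choice of PLBD1. The median difference of the 14 was 0.19 and that of all probe sets tested −0.0086. Leaving out KNP replicate 2, 3 or 4 or YS replicate 4 left 1 PLBD1 probe set called, Ssc.24411.3.S1_a_at, and leaving out YS replicate 1, 2 or 3 left 0. Both stayed called without KNP replicate 1. After quantile normalization Ssc.24411.3.S1_a_at was the only one of the 14 called, with differences of 1.81 for it and 1.61 for the brightest PLBD1 probe set.

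**Figure D3:**
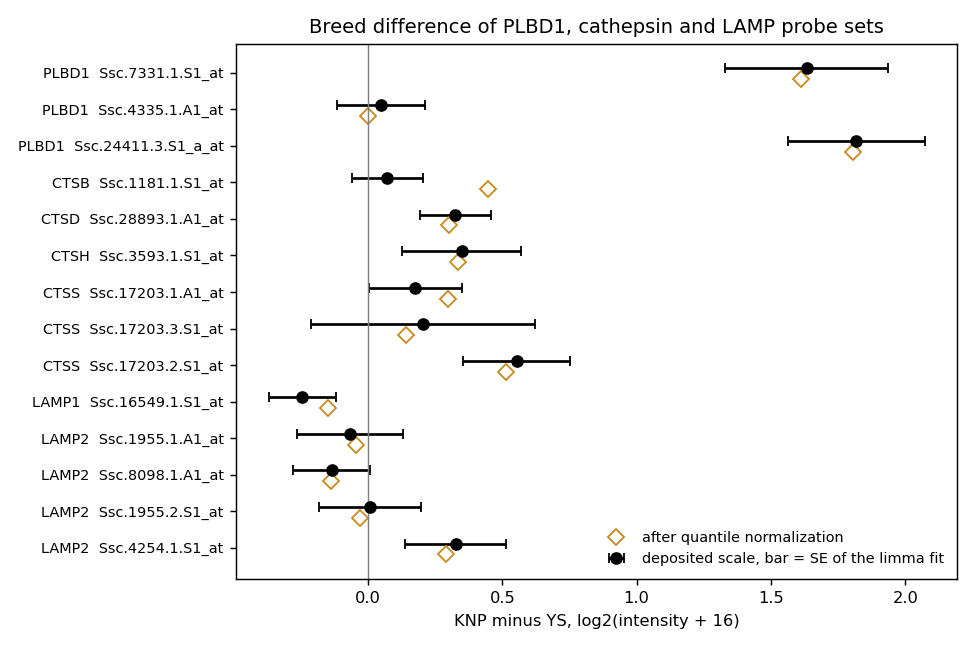
KNP minus YS in log2(intensity + 16) for the 14 probe sets tested, with the SE of the limma fit on the deposited scale (black) and the value after quantile normalization (open diamonds). Both PLBD1 probe sets near 1.63 and 1.82 stand apart from the rest, which lie between −0.25 and 0.55, and CTSB moves from 0.072 to 0.45 with the scaling.

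Lysosomal genes beyond these were counted in the same comparison of the breeds. Of 133 symbols in 10 lists of lysosomal function, 91 had a probe set and 87 were tested by their brightest one. Of these, 1 rose in KNP, 0 fell and 86 did not pass (limma with Benjamini-Hochberg adjustment over the 14399 probe sets). This 1 gene is 1.15% of the 87. Over all 5423 genes tested in this way, 1.36% were called, 0.498% higher and 0.867% lower. The shares are close, so nothing about lysosomal genes is read from the count. The median of the 87 was 0.062 against −0.016 for all genes, and 49 had a higher and 38 a lower mean in KNP.

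The gene that rose was GLMP, a glycoprotein of the lysosomal membrane, which read 784, 913, 648 and 727 in KNP and 458, 423, 369 and 471 in YS. The breeds were clearly apart, at 768 ± 112 and 430 ± 45.5 (SD, n = 4 per breed), a difference of 0.81 (SE 0.17, limma adjusted p = 0.0484). This call was lost with any of the 8 animals left out (adjusted p from 0.0599 to 0.138) and after quantile normalization, where the difference was 0.77. LAPTM5, a lysosomal membrane protein of blood-derived cells, read 1277, 1156, 925 and 1422 in KNP and 489, 326, 675 and 669 in YS, also without overlap. Its difference was 1.16 (SE 0.24, limma adjusted p = 0.0501), just outside the threshold. Of the 87 genes, 9 showed no overlap in either direction, GLMP, LAPTM5 and CTSV (below) among them. Over all 5423 genes 11% showed none, so the lack of overlap is not particular to lysosomal genes. Of the 10 lysosomal membrane proteins tested besides the LAMPs, 4 had a higher and 6 a lower mean in KNP, with a median of −0.02.

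Among the other cathepsins, 5 of 10 were on the array and none passed. CTSV showed −0.55 (SE 0.12, limma adjusted p = 0.0643) and −0.26 after quantile normalization. It read 12885, 16332, 14872 and 15457 in KNP and 19988, 21700, 21615 and 23590 in YS, so that all KNP animals were below all YS animals. The pig gene table lists CTSL as a synonym of this CTSV entry, beside a separate CTSL gene that no probe set names, so the reading cannot be assigned to CTSL here. CTSC, which activates the serine proteases of neutrophils and lymphocytes, showed 0.43 with its brightest probe set (SE 0.17, limma adjusted p = 0.278). Of the 5 other lysosomal peptidases, LGMN, the asparagine-specific protease that matures cathepsins, showed −0.50 (limma adjusted p = 0.223) and CPQ 0.41 (limma adjusted p = 0.548). LGMN showed −0.22 after quantile normalization and −0.23 after cyclic loess, and CPQ ran from 0.16 to 0.65 with 1 animal left out. The cathepsin inhibitors CST3 and CSTB showed 0.30 and 0.19 (limma adjusted p = 0.42 and 0.686).

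Of 12 genes of lysosomal lipid breakdown none passed, and 9 had a higher mean in KNP. PLBD2, the paralog of PLBD1, showed 0.30 (limma adjusted p = 0.578), with 788, 1225, 672 and 906 in KNP and 743, 976, 532 and 658 in YS. These ranges overlapped, and its difference lay among those of the cathepsins. SMPDL3A, a phosphodiesterase related to acid sphingomyelinase, showed 1.08 (SE 0.30, limma adjusted p = 0.125) and NPC1, which exports cholesterol from the lysosome, −0.96 (SE 0.28, limma adjusted p = 0.142).

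None of the 12 glycosidases and sulfatases passed (median −0.0076), with NEU1, a sialidase, at −0.46 and ARSA, arylsulfatase A, at 0.58. None of the 12 subunits of the proton pump that acidifies the lysosome passed (median −0.055), with ATP6V1A at −0.51 and ATP6V0D1 at 0.34. The 8 genes of mannose 6-phosphate sorting, which carries cathepsins to the lysosome, had a median of −0.0031 and none passed, with GNPTAB at 0.24 and NAGPA at 0.23. TFEB, a transcription factor that drives lysosomal genes, read 251, 176, 308 and 344 in KNP and 120, 93.7, 242 and 113 in YS, at 0.90 (SE 0.30, limma adjusted p = 0.191). YS replicate 3 alone reached into the KNP range. The list of regulators had a median of 0.10 over 9 genes, with LAMTOR4 at 0.31, and none passed. Of 12 autophagy genes none passed, with a median of 0.086. The nearest was MAP1LC3A, which coats the autophagosome, at 0.84 (SE 0.19, limma adjusted p = 0.0678), followed by WIPI2 at 0.32.

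**Figure D4:**
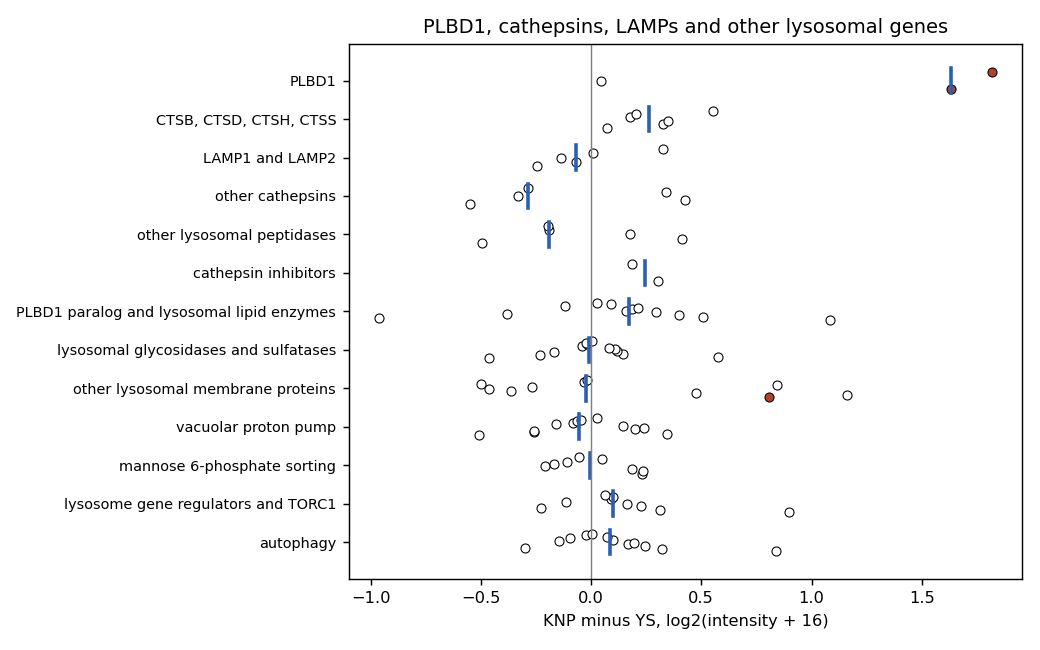
KNP minus YS in log2(intensity + 16) for each PLBD1, cathepsin and LAMP probe set tested and for the brightest probe set of each gene of the 10 lysosomal lists, with called ones filled and a blue line at the median. Filled points are 2 PLBD1 probe sets and GLMP, and the list medians lie between −0.29 and 0.25.

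The genes whose pattern over the 8 arrays was most like that of the brightest PLBD1 probe set were NPG4 (Pearson r 0.965), PRR13 (0.953), SENP2 (0.951), HMOX2 (0.948) and PYCR3 (0.948). They are the highest of a search over all tested probe sets of the 5423 genes, PLBD1 aside, with the best probe set of each gene kept. In such a search r this high over only 8 arrays can arise without any link, so none is read from it. All arrays share the difference between the breeds, which sets much of these values, and r for deviations from the breed means was 0.893, 0.805, 0.849, 0.768 and 0.764 in the same order. NPG4, a protegrin, an antimicrobial peptide of pig neutrophils, read 191, 569, 379 and 752 in KNP and 107, 164, 135 and 157 in YS. As with PLBD1, KNP replicate 4 was highest and KNP replicate 1 lowest of KNP, an order that the choice by r favours. Its difference was 1.50 (SE 0.35, limma adjusted p = 0.0785), and its probe set can also pick up other protegrins of near-identical sequence.

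PRR13, a proline-rich protein, was called by the same fit, at 3096 ± 456 in KNP and 1550 ± 154 in YS (SD, n = 4 each; 0.98 on the log2 scale, SE 0.16, limma adjusted p = 0.0314). This call was lost without any 1 of the YS animals, with adjusted p up to 0.0975, and after quantile normalization (limma adjusted p = 0.0642). By deviations from the breed means alone, in a search of the same size, the closest were DHX30 (r 0.965), LOC102162486 (0.958), KLHL2 (0.952), RB1CC1 (0.949) and PCBP4 (0.942). None of them was called between the breeds. Of the cathepsin and LAMP probe sets, CTSD had the highest r to PLBD1 over the 8 arrays (0.879, and 0.424 within breeds), then the dimmest of CTSS (0.821 and 0.510), and LAMP1 the lowest (−0.53 and 0.44).

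**Figure D5:**
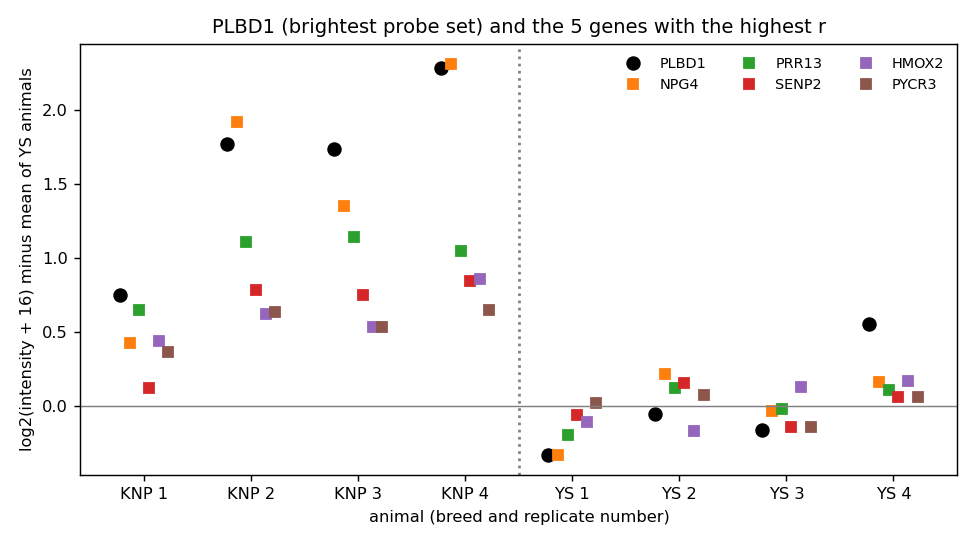
Log2(intensity + 16) in each animal minus the mean of the YS animals for the brightest PLBD1 probe set and the 5 genes with the highest r to it. PLBD1 and NPG4 both run highest in KNP replicate 4 and lowest of KNP in replicate 1, and the genes were picked for their high r.

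Markers of other cells that a piece of liver holds were read beside PLBD1 and the cathepsins. Of 18 Kupffer cell and macrophage markers, 12 were on the array and 11 tested; CD68, CSF1R, C1QB, MSR1, TIMD4 and ADGRE1 had no probe set of their own, MARCO was too dim for the fit, and none was listed at 0. FCER1G, a signalling chain of Fc receptors in myeloid cells, rose, at 556 ± 80.0 in KNP and 283 ± 39.7 in YS (SD, n = 4 each; 0.93 on the log2 scale, SE 0.17, limma adjusted p = 0.0384), a call kept only without KNP replicate 2 when 1 animal was left out. The other 10 did not pass. The median was 0.46, 9 of 11 had a higher mean in KNP, and the summed intensity ran from 29537 to 35903 in KNP and from 21976 to 31452 in YS. Of 13 neutrophil markers, 8 were on the array, 6 were tested and none passed; MPO, CXCR2, CSF3R, CAMP and MMP8 had no probe set. Their median was 0.23, with 3 higher and 3 lower in KNP by their means (MMP9 −0.54, S100A8 −0.17 and ELANE −0.14), their summed intensity ran from 595 to 1540 in KNP and from 669 to 1048 in YS, and none was listed at 0. S100A9, a calcium-binding protein abundant in neutrophils, read 107, 302, 547 and 460 in KNP and 147, 115, 167 and 106 in YS, at 1.12 (limma adjusted p = 0.235). The part of these cells in the PLBD1 values was not tested.

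Hepatocyte markers, which define the labelled tissue, were bright: all 10 were on the array, with no value under 19260. Of these 8 fell in KNP (AHSG by 0.86, TF by 0.70, ALB by 0.69, HP by 0.66, APOA1 by 0.60, FGB by 0.60, APOH by 0.56 and SERPINA1 by 0.53, limma adjusted p from 0.019 to 0.0479), 0 rose and TTR and CPS1 did not pass. None of the 8 was called after quantile normalization, where APOH, APOA1 and SERPINA1 turned to 0.016, 0.017 and 0.016. Over the 10 cell type lists 9 of 56 genes tested passed, beside 1.36% of all genes. Of the remaining lists none had a gene past the threshold. Their median and the gene with the smallest p were 0.44 for T and NK cells (CD247 at 1.44), 0.85 for B and plasma cells (JCHAIN, the only one tested), 0.16 for endothelium (FCN2 at −1.03), −0.05 for stellate cells and fibroblasts (DES at −0.81), 0.52 for bile duct cells (EPCAM at 0.65), −0.37 for platelets (ITGA2B at −0.43) and −0.56 for erythroid cells (AHSP at −0.91).

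The highest intensity was 50730 to 60066 on KNP arrays and 83646 to 95919 on YS arrays, while the medians were 152 to 169 and 153 to 179. On the 4 YS arrays and on those of KNP replicates 1 and 3 the highest intensity was that of the hepatocyte marker ALB. On those arrays the gap and the ALB difference are the same readings. The ALB difference was −0.69 as deposited and −0.059 after quantile normalization. The part of array scaling in both was not tested. The actin 3' to 5' ratio, which rises as RNA gets shorter, was 2.68 to 6.45 in KNP and 8.39 to 11.8 in YS, without overlap, so RNA length and breed cannot be told apart. With this ratio as a covariate, 0 of the 14 PLBD1, cathepsin and LAMP probe sets were called, and the 2 PLBD1 probe sets called without it showed 2.18 (the brightest) and 1.62. No source used here dates the hybridizations, so any such batch was not analysed.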

How the data were processed

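Total RNA of 8 pig livers was hybridized to the Affymetrix porcine array. The authors deposited a linear intensity for each probe set, made with GCOS 1.3 per the submitters' processing notes; the signal algorithm is not given in the sources used here. Each array's mean between percentiles 2 and 98 was 500.1, so the deposited intensities were scaled per array. Of 24123 probe sets 124 controls and then the dimmest 40% by mean were left out, and 14399 were tested on log2(intensity + 16), without further scaling, with limma 3.58.1 in R 4.3.3 (lmFit, eBayes with trend, two-sided, breed as the only term, Benjamini-Hochberg). The fit was also run on simulated data with independent noise in each probe set. These hold no array-wide scaling or RNA length shift, so they say nothing of how such shifts affect the calls. Symbols are those of GEO's array annotation, and those of the 7 genes were the same in the RefSeq table of Sscrofa11.1. Listed genes are counted by their brightest probe set. No coordinates are given, since the array files and labels name no genome build, and the RefSeq table served for names and neighbours. The labels call the animals biological replicates; their number limits the precision.

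The genes, lists and tests were chosen with earlier results of these data known. Named are all probe sets of the 8 genes, in each lysosomal list genes past the threshold and the 2 with the smallest p, in each cell type list those past it and the first by p, and the 5 genes most like PLBD1 by each r. Alternatives were pseudocounts of 1 and 64, 3 normalizations between arrays, other filters, a replicate block, leaving out each animal, array weights, no trend, the mean of a gene's probe sets, a threshold of 0.01 and the actin ratio as a covariate. Replicate numbers do not pair the animals: r between the deviations of same-numbered animals ran from −0.02 to 0.051.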

Additional observations from a re-analysis of the deposited data

Results flagged for a closer look

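Among 124 groups of 4 animals examined for 1 animal far from the other 3, 6 stood out, about as many as the 1 in 20 that chance gives. SENP2 and RB1CC1, given below, had been picked for following PLBD1, which was itself lowest of KNP in replicate 1 and highest of YS in replicate 4. LAMP2 with its brightest probe set read 6182 in KNP replicate 1, against 4872 to 4904 in the other KNP animals. CTSC read 2336 in YS replicate 4, against 3448 to 3541 in the other YS animals. KNP replicate 1 was also apart in NPC1, at 1093 against 584 to 614, in ITGA2B, at 275 against 140 to 160, and in SENP2, at 793 against 1233 to 1317. RB1CC1 read 973 in YS replicate 4, against 704 to 732.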

How the results depend on the processing

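The differences of the 14 PLBD1, cathepsin and LAMP probe sets moved by less than the spread between animals in every setting, except under quantile normalization and cyclic loess (CTSB), cyclic loess (LAMP1) and the actin covariate (PLBD1, CTSD, CTSH, LAMP1 and LAMP2, 1 probe set each). The gap between PLBD1 and the cathepsins was 0.848 with the mean of a gene's probe sets and 1.18 to 1.71 with 1 animal left out. With the actin covariate it was 1.91. The 2 called among them became 1 after quantile normalization, cyclic loess, without a filter and without the trend, 0 at a threshold of 0.01 and with the actin covariate, and 0 to 2 with 1 animal left out. The 1 other lysosomal gene called became 2 with a pseudocount of 64, 4 with the lower 60% left out, 3 with array weights, 0 in quantile, loess, unfiltered and trendless fits, at 0.01 and with the actin covariate, and 0 with any animal left out. The 9 cell type markers called became 5 after median centring, 0 after quantile normalization, cyclic loess, without filter, without trend, at 0.01 and with the actin covariate, and 0 to 8 with 1 animal left out. All calls, 149 (61 higher, 88 lower), became 14 after quantile normalization (10 and 4) and 14 after cyclic loess (10 and 4), 95 after median centring (57 and 38), 35 without filter (24 and 11), 13 without trend (8 and 5), 5 at 0.01 (2 and 3), 8 with the actin covariate (6 and 2), and 8 to 119 with 1 animal left out.

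With the replicate number as a replicate block, which does not pair the animals, 8 probe sets were called in all, 1 of PLBD1, 0 other lysosomal genes and 0 cell type markers, and the gap between PLBD1 and the cathepsins stayed at 1.38.

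Among PLBD1, cathepsin and LAMP probe sets with no call, signs turned for CTSH (−0.47, actin covariate), PLBD1 Ssc.4335.1.A1_at (−0.002, quantile), LAMP2 Ssc.1955.1.A1_at (0.0074 after median centring, 0.041 after cyclic loess) and LAMP2 Ssc.1955.2.S1_at (−0.015 to −0.033 in the actin, array weight, quantile and loess fits). With 1 animal left out they turned for the last 3 and for CTSS Ssc.17203.3.S1_at. In other genes signs turned with the actin covariate for CSTB (−0.271), LAMTOR4 (−0.0725), WIPI2 (−0.042), RB1CC1 (0.118) and PCBP4 (0.262), and after quantile normalization for APOH (0.0163), APOA1 (0.0173) and SERPINA1 (0.0163). LOC102162486 turned to −0.0069 with quantile normalization, −0.0138 with cyclic loess and −0.0671 with array weights, and ran from −0.17 to 0.247 with 1 animal left out, as PCBP4 did from −0.324 to 0.0424. The causes were not tested. The table gives no detection calls, so a dim value such as that of Ssc.24411.1.S1_at cannot be told from background.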

Other observations

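GUCY2C, the gene next to PLBD1 on one side in Sscrofa11.1, read 146 ± 44.2 in KNP and 154 ± 59.5 in YS (SD, n = 4 per breed), a log2 difference of −0.04 (limma adjusted p = 0.967). ATF7IP, the neighbour on the other side, has no probe set of its own symbol. Both were looked up after the PLBD1 values were seen.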
